A study of Mus musculus with 9 samples.

Results

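Rlf and Resf1 are 2 of the 32427 genes counted in single-cell RNA libraries of 9 mouse kidneys, and each was followed as 1 row of every count matrix. They were chosen by their lower counts in AKI-CKD than in Control mice, summed over the cells of a mouse. That difference is therefore described below without a test. The study compared male C57BL/6 mice that were 6 weeks old at arrival, with 3 mice per group and tissue taken 8 weeks into the experiment. Control mice were given saline, and AKI-CKD mice were given cisplatin 4 times, once a week, at 8 mg/kg. AKI-CKD + EGT mice were given the same cisplatin and drank water with 0.5 mg/mL ergothioneine (EGT), a thiol amino acid with antioxidant activity. EGT was begun before the cisplatin and kept up to the end of the study. Cisplatin is a platinum drug that damages the kidney tubule, and repeated doses are used as a model of acute kidney injury that passes into chronic disease. No group received EGT without cisplatin.

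Rlf encodes a large zinc finger protein. It was found in mouse mutagenesis screens as a gene whose loss changes the silencing of a transgene, and RefSeq lists MommeD8, a name from such a screen, as its synonym. Resf1 encodes retroelement silencing factor 1, which in embryonic stem cells helps the histone methyltransferase Setdb1 to keep endogenous retroviruses silent. Setdb1 places methyl groups on lysine 9 of histone H3, a mark of closed chromatin that HP1 proteins read and that the HUSH complex spreads over retroelements and other inserted DNA.

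The sequence before each start site is shown here because both genes moved the same way, and it lets a reader see what the start sites share. RefSeq places the 250 bases upstream of Rlf on the minus strand of GRCm38.p6 at chr4:121215085-121215334, and those of Resf1 on the plus strand at chr6:149309164-149309413. Capitals mark every match, on either strand, to the GC box (GGGCGG), the CCAAT box (CCAAT), the E-box (CACGTG) and the TATA box (TATAAA).
Rlf: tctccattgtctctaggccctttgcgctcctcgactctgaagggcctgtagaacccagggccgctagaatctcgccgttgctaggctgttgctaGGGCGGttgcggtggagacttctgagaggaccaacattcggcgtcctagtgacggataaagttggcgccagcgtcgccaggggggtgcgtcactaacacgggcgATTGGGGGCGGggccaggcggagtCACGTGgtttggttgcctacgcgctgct
Resf1: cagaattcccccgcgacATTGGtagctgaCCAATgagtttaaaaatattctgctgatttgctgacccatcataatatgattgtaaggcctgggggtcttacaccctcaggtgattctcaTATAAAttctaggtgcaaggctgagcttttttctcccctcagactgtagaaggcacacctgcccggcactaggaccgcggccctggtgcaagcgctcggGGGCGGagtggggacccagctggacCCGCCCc

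Both windows held 2 GC boxes, a motif present in 32.7% of 32841 windows of the same length before RefSeq genes. The CCAAT box occurred once before Rlf, in the opposite orientation and next to a GC box, and 2 times before Resf1, where 33.9% of windows held it. An E-box was found before Rlf but not before Resf1 (6.02% of windows), and a TATA box before Resf1 but not before Rlf (12.4% of windows). The Rlf window held 21 CpG dinucleotides and the Resf1 window 9, against a median of 6. GC content was 62% before Rlf and 54.4% before Resf1, against a median of 52.4%. The letters of an ETS core (CCGGAA, in 12% of windows) were in neither window, nor were those of an NRF1 site. The 2 windows therefore shared the GC and CCAAT boxes, and these matches are a description of letters and not of bound factors.

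Between 70106161 and 101525691 unique molecular identifiers (UMIs, counts of captured RNA molecules) were deposited per mouse, on 216680 cell barcodes in all. Of these, 196925 cells were kept, with library medians of 2534 to 2966 UMIs per cell. AKI-CKD + EGT mouse 3 stood apart from the other mice. The limit of 15% mitochondrial UMIs removed 27.7% of its barcodes, proximal tubule cells made up 34.4% of its cells against 44.6% to 56.8% in the other 8 mice, and its Malat1 level was the highest of all. For the EGT comparisons of Resf1, values without it are given beside those with it. Barcode names are droplet serial numbers, and pairs of libraries shared 3583 to 7810 of them.

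In the sums of all cells, Rlf was measured with 937 to 2624 UMIs per mouse and Resf1 with 1598 to 7458. In Control mice 1, 2 and 3, Rlf stood at 28.0, 26.5 and 30.2 CPM (UMIs of the gene scaled to a fixed library total, here adjusted by the trimmed mean of M-values, TMM). In AKI-CKD mice 1, 2 and 3, its level was 16.1, 13.5 and 13.9 CPM. In AKI-CKD + EGT mice 1, 2 and 3, it was 19.6, 19.2 and 21.1 CPM. On this scale the 3 groups did not overlap for Rlf, and the AKI-CKD + EGT mice lay between the Control and the AKI-CKD mice. On plain CPM, scaled by total UMIs alone, AKI-CKD + EGT mouse 3 was at 25.5 CPM and above Control mouse 2 at 24.7 CPM.

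Group means of Rlf were 28.2 ± 1.88 CPM in Control, 14.5 ± 1.42 CPM in AKI-CKD and 19.98 ± 1.03 CPM in AKI-CKD + EGT (SD, n = 3 each). On the log2 scale, Rlf in AKI-CKD differed from Control by -0.96 (SE 0.12), which is 51.3% of the Control level. This is the contrast that chose the gene. All 3 AKI-CKD mice lay below all 3 Control mice, as was the case for 7.08% of the 20144 genes tested, and nothing is read from that count. In summed counts, fewer cells of a type and less RNA per cell cannot be told apart.

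For Resf1, the level in Control mice 1, 2 and 3 was 87.6, 62.5 and 85.9 CPM. In AKI-CKD mice 1, 2 and 3, it was 21.0, 29.0 and 21.8 CPM. In AKI-CKD + EGT mice 1, 2 and 3, it was 47.6, 47.5 and 20.6 CPM. Every AKI-CKD mouse was below every Control mouse, and 2 of the AKI-CKD + EGT mice were nearly equal and above all AKI-CKD mice, whereas mouse 3 was the lowest of the 9. On plain CPM mouse 3 was at 24.9 CPM, above AKI-CKD mice 1 and 3 at 20.04 and 18.6 CPM. Means were 78.7 ± 14.0 CPM in Control, 23.9 ± 4.43 CPM in AKI-CKD and 38.6 ± 15.6 CPM in AKI-CKD + EGT (SD, n = 3 each). Resf1 in AKI-CKD differed from Control by -1.72 (SE 0.29) on the log2 scale, or 30.4% of the Control level, again in the contrast that chose it.

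**Figure D1:**
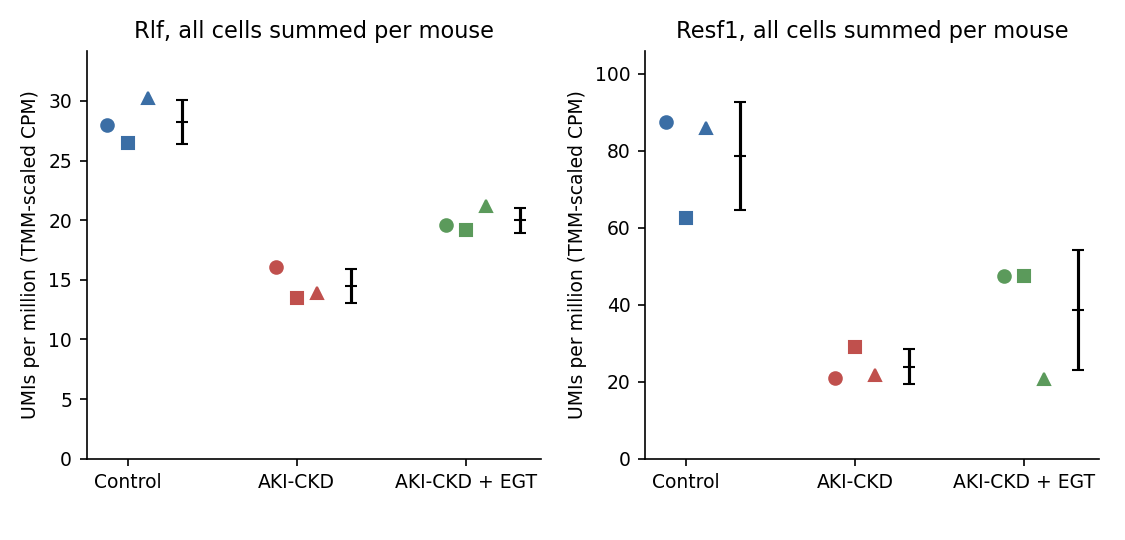
TMM-scaled CPM (vertical axis) of Rlf and Resf1 in the sums of all kept cells of each mouse. Circles, squares and triangles are mice 1, 2 and 3 of a group, and the black bar is the mean with its SD (n = 3). On this scale the 3 groups are apart for Rlf, and for Resf1 AKI-CKD + EGT mouse 3 lies at 20.6 CPM with the AKI-CKD mice.

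Whether EGT, given before and along with cisplatin, was accompanied by higher levels of these genes was asked by comparing AKI-CKD + EGT with AKI-CKD mice. The AKI-CKD mice of this comparison had entered the choice of the 2 genes, and so had the Control mice of the next. Rlf was higher by 0.46 (SE 0.12) on the log2 scale, with an adjusted p of 0.318 in edgeR's quasi-likelihood test over 20144 genes. All 3 AKI-CKD + EGT mice lay above all 3 AKI-CKD mice, which held for 8.53% of the genes tested. DESeq2 gave nearly the same value, 0.47, with an adjusted p of 0.0330. It called 1.21% of the genes tested and edgeR 0.00496%, so the call for Rlf depended on the tool. Without scaling beyond total UMIs, the value of Rlf was 0.70, and the median of all genes moved by 0.23 in the same direction.

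For Resf1 the same difference was 0.69 (SE 0.29) on the log2 scale, with an adjusted p of 0.373 in edgeR, and the groups overlapped. Without AKI-CKD + EGT mouse 3 the difference was 1.01 with a smaller SE of 0.19. Its adjusted p in edgeR, which depends on all 20587 genes tested, was 0.847. The test was passed neither with that mouse nor without it, and DESeq2 gave an adjusted p of 0.224 with the mouse included.

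Against Control, the AKI-CKD + EGT mice had lower mean levels of both genes, and with TMM scaling all 3 lay below all Control mice for each, as for 6.25% of the genes tested. Rlf differed by -0.50 (SE 0.11) on the log2 scale, or 70.8% of the Control level, with an adjusted p of 0.379 in edgeR and 0.0192 in DESeq2. Without scaling beyond total UMIs the value of Rlf was -0.33 (adjusted p = 0.493 in edgeR). Resf1 differed by -1.03 (SE 0.29), or 49.0% of the Control level, with an adjusted p of 0.536 in edgeR and 0.0702 in DESeq2. Without AKI-CKD + EGT mouse 3 the Resf1 difference was -0.72 (SE 0.20), with an adjusted p of 0.618 in edgeR. DESeq2 called 0.541% of genes in this comparison.

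Several measures of the libraries moved with the groups. Ribosomal protein genes took 7.09% to 7.82% of UMIs in Control, 8.79% to 9.86% in AKI-CKD and 7.17% to 8.26% in AKI-CKD + EGT mice. Genes with a longest transcript of 6000 bases or more took 6.12% to 6.76% in Control, 4.92% to 6.00% in AKI-CKD and 5.90% to 8.23% in AKI-CKD + EGT. Both genes fall in that class, with a longest GENCODE transcript of 6585 bases and 6 exons for Rlf and 6066 bases and 5 exons for Resf1. A single exon made up most of each, with 5650 bases in Rlf and 4380 in Resf1.

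Over the 2037 tested genes of this length, the median log2 difference was -0.13 for AKI-CKD against Control and 0.10 for AKI-CKD + EGT against AKI-CKD. Over the 2355 genes under 1000 bases, it was 0.08 and -0.07, and over all tested genes 0.00 and -0.01. Transcript lengths were found for 92.4% of the tested genes. A narrower class holds genes with an exon of 4000 bases or more and an average log2 CPM of 4 or more. Over its 597 genes the medians were -0.11 and -0.01, against 0.04 and -0.14 over all 6047 genes of that level. The part of length in the 2 genes was not tested.

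Malat1, a long RNA kept in the nucleus, spanned 7570 to 9940 CPM in Control mice. In AKI-CKD mice it spanned 3185 to 9027 CPM. It spanned 6209 to 12030 CPM in AKI-CKD + EGT mice. Mitochondrial genes took 1.55% to 6.08% of UMIs in Control, 1.94% to 3.03% in AKI-CKD and 3.40% to 6.39% in AKI-CKD + EGT mice. The ranges of AKI-CKD and AKI-CKD + EGT mice did not overlap, so this share differed between the groups of the EGT comparison. Control mouse 3, with the lowest mitochondrial share of all, and Control mouse 1, with 6.08%, had similar Resf1 levels of 85.9 and 87.6 CPM. AKI-CKD + EGT mouse 3, with the highest mitochondrial share at 6.39%, had a Resf1 level of 20.6 CPM with TMM scaling and 24.9 CPM without. The part of these measures in the group differences was not tested.

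**Figure D2:**
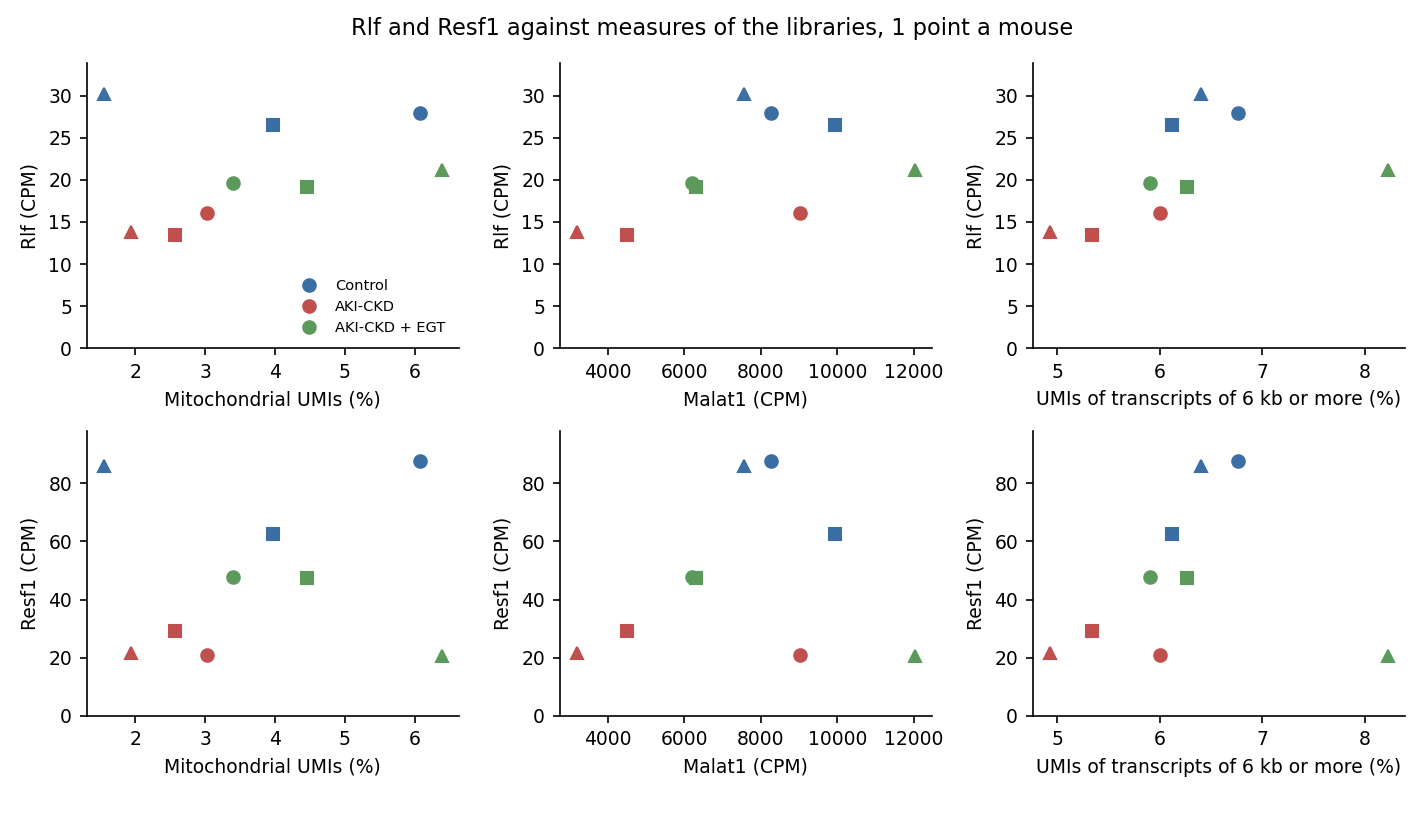
CPM of Rlf (top) and Resf1 (bottom) against the share of mitochondrial UMIs, the Malat1 level and the share of UMIs from genes with transcripts of 6 kb or more, 1 point a mouse. Circles, squares and triangles are mice 1, 2 and 3. The AKI-CKD mice hold the 2 lowest Malat1 levels, and the share from long transcripts is highest, at 8.23%, in AKI-CKD + EGT mouse 3.

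Cells were then divided by marker genes into 12 types that held at least 20 cells in every mouse, with 133291 of the kept cells. The proximal tubule, the segment that takes back most of the filtered solutes and takes up cisplatin, held 96352 of them. It also held 72.3% of all Rlf UMIs and 67.1% of all Resf1 UMIs, against 61.2% of all UMIs. These shares depend on which clusters were named, since 40686 further cells lay in clusters whose best match was the proximal tubule but which were left unnamed. At a clustering resolution of 0.6, the proximal tubule held 126972 cells, with 62.0% of Rlf UMIs, 60.3% of Resf1 UMIs and 60.4% of all UMIs. With the mix of cell types held at its mean over the 9 mice, Rlf stood at 31.1 ± 3.14 CPM in Control, 15.8 ± 1.96 CPM in AKI-CKD and 25.1 ± 2.77 CPM in AKI-CKD + EGT. Resf1 stood at 82.6 ± 18.5, 24.9 ± 6.43 and 43.6 ± 15.8 CPM in the same order (SD, n = 3 each, total UMIs as the base). The Resf1 values of AKI-CKD + EGT mice 1, 2 and 3 were 51.8, 53.5 and 25.3 CPM. Each of the group means lay within 1 CPM of the mean with the mice's own mix of types. Both kinds of mean leave out the cells outside the 12 types, so a change in their share is not covered. Those cells held 23.4% of all UMIs, 12.3% of Rlf UMIs and 18.1% of Resf1 UMIs. Unnamed cells made up 19.2% of the cells of AKI-CKD + EGT mouse 3, against 29.3% to 37.1% in the other mice.

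Within proximal tubule cells, Rlf was counted with 649 to 2030 UMIs per mouse. On plain CPM, its level was 36.2, 28.1 and 35.1 in Control mice 1, 2 and 3. The AKI-CKD mice stood at 18.1, 16.6 and 13.5, and the AKI-CKD + EGT mice at 25.3, 23.6 and 29.4. For Resf1 the Control mice stood at 105.5, 64.2 and 89.7 CPM, the AKI-CKD mice at 20.4, 32.4 and 18.2 CPM, and the AKI-CKD + EGT mice at 54.3, 54.9 and 24.3 CPM. All AKI-CKD mice were below all Control mice for both genes, as in the sums of all cells. This is part of the contrast that chose the genes. With TMM scaling, where it also held, 8.69% of the 17419 genes tested in these cells lay that way. On plain CPM, AKI-CKD + EGT mouse 3 was above Control mouse 2 for Rlf and within the range of the AKI-CKD mice for Resf1. With the TMM scaling used for the tests, it was below Control mouse 2 for Rlf (24.8 against 29.9 CPM) and at 20.4 CPM for Resf1, below the lowest AKI-CKD mouse at 20.7 CPM.

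The proximal tubule difference between AKI-CKD and Control, the contrast that chose the genes, was -0.95 (SE 0.12) for Rlf and -1.78 (SE 0.33) for Resf1 on the log2 scale. Between AKI-CKD + EGT and AKI-CKD it was 0.48 (SE 0.12, adjusted p = 0.226 in edgeR, 0.0340 in DESeq2) for Rlf. For Resf1 it was 0.73 (SE 0.33, adjusted p = 0.330 in edgeR). Leaving out AKI-CKD + EGT mouse 3 gave 1.08 (SE 0.23, adjusted p = 0.616 in edgeR).

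Outside the proximal tubule the levels carried a large amount of proximal tubule RNA. Cycling cells were named by cell division genes alone, so some of them may be proximal tubule cells. The 15 proximal tubule markers, among them the uptake receptor Lrp2 and the phosphate transporter Slc34a1, had a median level of 34.3% of their proximal tubule level in principal cells and 63.2% in B cells, with the other types between. Rlf and Resf1 are also made in the proximal tubule, so part of their counts in every other type cannot be told apart from such RNA. In connecting tubule cells, Rlf stood at 52.6% of its proximal tubule level and Resf1 at 68.3%, where the markers stood at 55.2%. In macrophages Rlf stood at 61.8% and Resf1 at 89.0%, where the markers stood at 61.0%. In principal cells, which control salt and water uptake in the collecting duct, the markers stood at 34.3%, while Rlf stood at 105.5% and Resf1 at 127.5%. In endothelial cells the markers stood at 47.7%, Rlf at 84.3% and Resf1 at 119.8%, and in T cells the markers at 50.3%, Rlf at 82.0% and Resf1 at 129.7%. These percentages pool the 3 groups, with the AKI-CKD mice by whose low counts the genes were chosen. In Control mice alone, the Rlf mean was 28.3 CPM in principal cells against 33.1 CPM in the proximal tubule. For Resf1 it was 82.0 CPM in principal, 93.6 CPM in endothelial and 95.8 CPM in T cells, against 86.5 CPM in the proximal tubule.

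As counted, Resf1 was lower in AKI-CKD than in Control in all 12 types tested, with log2 differences of -1.78 in the proximal tubule to -0.51 in principal cells. The mice of the groups did not overlap in any of the 12, while 7.77% of all genes tested in the 12 types lay that way. Rlf passed the filter on low counts in 8 types and was lower in each, from -1.11 in macrophages to -0.19 in principal cells, with no overlap in 6. These are parts of the contrast that chose the genes. The smaller types rested on few molecules, such as 77 Rlf UMIs in the macrophages of the 6 Control and AKI-CKD mice together.

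**Figure D3:**
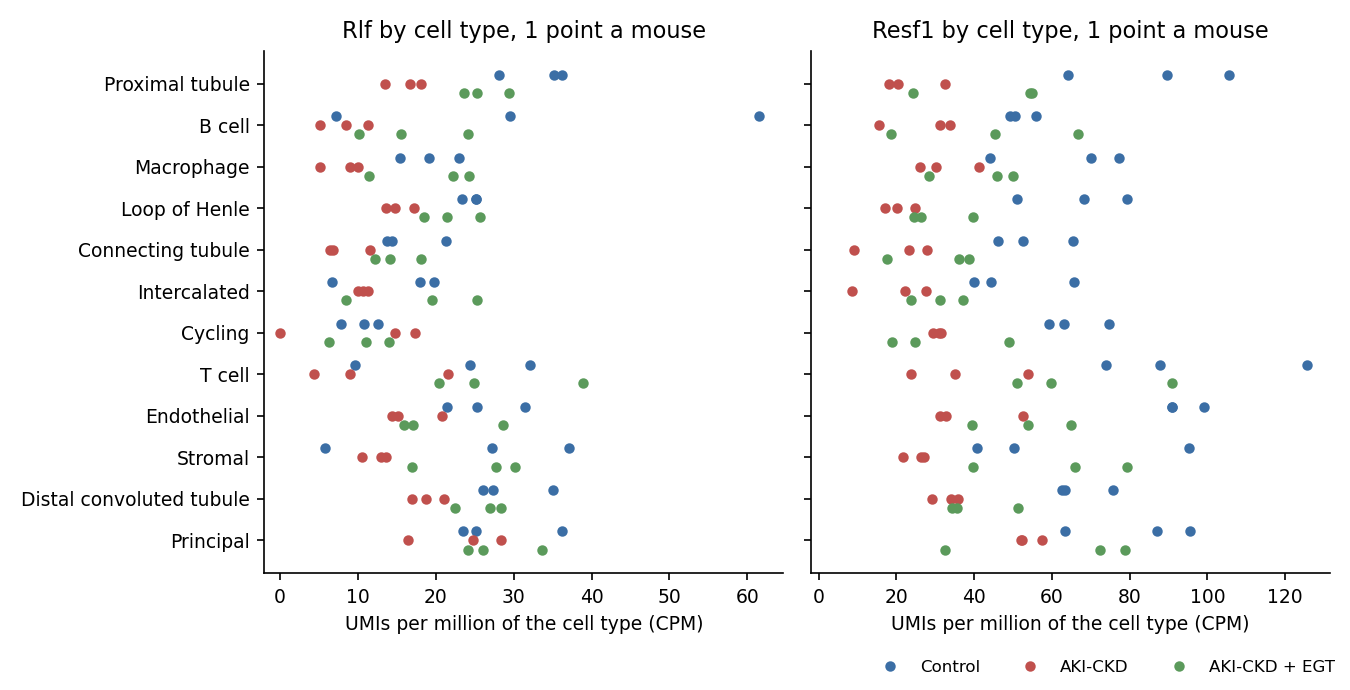
CPM of Rlf and Resf1 (horizontal axis) in 12 cell types, 1 point a mouse, coloured by group and as counted. Types other than the proximal tubule are ordered by their level of proximal tubule markers, highest at the top, and the Resf1 levels of AKI-CKD mice lie below those of Control mice in all 12 types.

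A proximal tubule share was then taken out of each type in each mouse, using the median level of the 15 markers in the same mouse as the share. Of the 11 other types, Resf1 levels of AKI-CKD mice then lay below those of all Control mice in 1, the endothelial cells, against 11 as counted. After the same step, 6.88% of all genes tested in the 11 types lay that way, and 8.74% of those tested in endothelial cells. Genes at large were not chosen by this contrast, so these percentages are not a like background for Resf1 or Rlf. What is taken out scales with a mouse's own proximal tubule level of the gene. For Resf1 that level averaged 86.5 CPM over Control but 23.7 CPM over AKI-CKD mice, and for Rlf 33.1 against 16.1 CPM. At an equal share, more is therefore taken out of Control mice. What part this has in the counts of types was not tested. Endothelial cells line the blood vessels. Their Resf1 level was 99.3 ± 13.0 CPM in Control, 51.4 ± 9.38 CPM in AKI-CKD and 60.1 ± 11.1 CPM in AKI-CKD + EGT (SD, n = 3 each). The lowest Control mouse was at 91.6 CPM and the highest AKI-CKD mouse at 62.1 CPM, and the highest AKI-CKD + EGT mouse at 72.9 CPM.

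In T cells the mean of Resf1 was 109.2 ± 41.1 CPM over Control and 55.7 ± 36.4 CPM over AKI-CKD mice, which overlapped. In principal cells these means were 77.7 ± 18.2 and 65.9 ± 8.69 CPM, and in the distal convoluted tubule 47.3 ± 13.6 and 40.03 ± 9.08 CPM. Both differences were smaller than the SD in Control. In the loop of Henle the means were 30.03 ± 7.51 and 20.1 ± 14.3 CPM, a difference above the SD in Control and below that in AKI-CKD. The Resf1 mean was higher in AKI-CKD than in Control in 4 of the 11 types. These were macrophages (51.4 ± 33.9 against 13.0 ± 44.4 CPM), B cells (29.5 ± 23.0 against -18.8 ± 66.1 CPM), connecting tubule (14.8 ± 19.1 against 8.80 ± 22.8 CPM) and intercalated cells (15.3 ± 14.9 against -0.079 ± 20.4 CPM). For Rlf no type of the 7 others tested kept AKI-CKD mice below all Control mice, against 5 as counted, and the AKI-CKD mean was the higher one in 3 of the 7, the connecting tubule, the loop of Henle and intercalated cells. Values below 0, as in connecting tubule and intercalated cells, arise where the share taken out exceeds what was counted, and they limit what this step can show. The step assumes that none of the markers is made outside the proximal tubule. In cycling cells the highest marker stood at 135% of its proximal tubule level. Other cells making it and dividing proximal tubule cells among them cannot be told apart, so the share taken out there is in doubt. In B cells the 15 markers ran from 40.6% to 87.5%, so a median is a rough share.

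**Figure D4:**
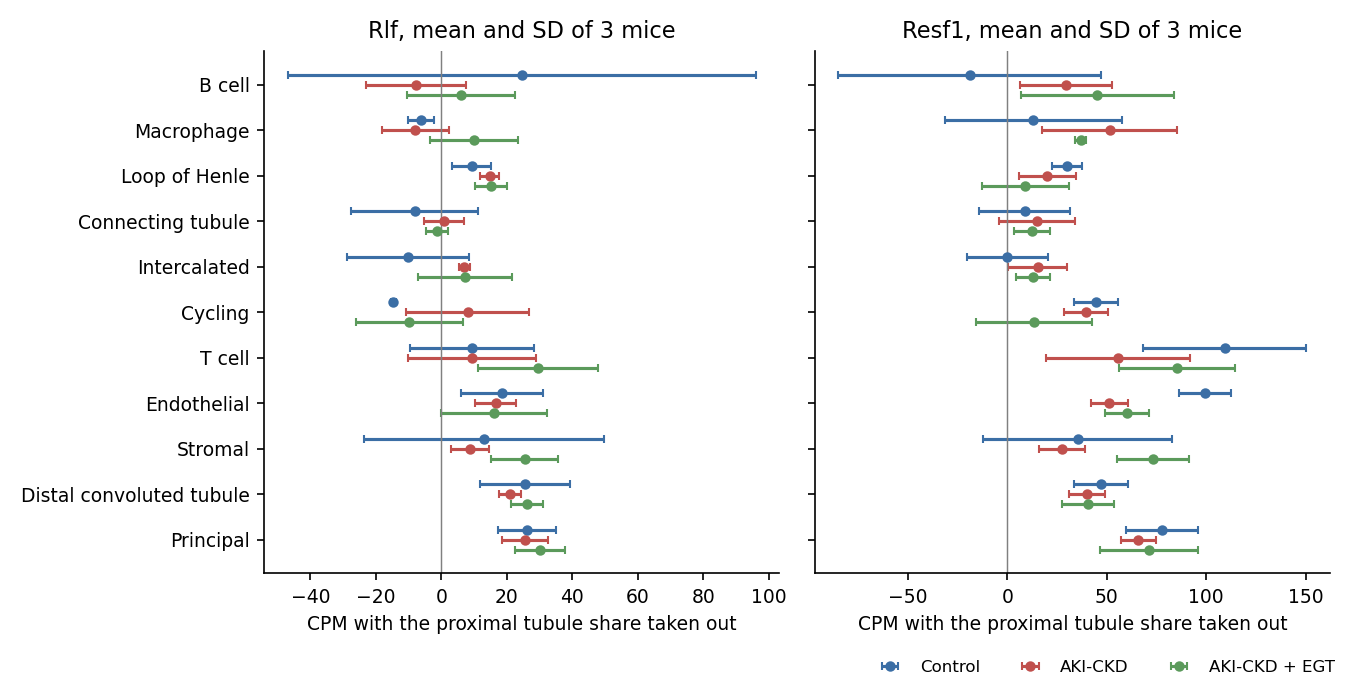
CPM of Rlf and Resf1 (horizontal axis) in the 11 types beside the proximal tubule after a proximal tubule share was taken out, as the mean and SD of 3 mice per group. The grey line marks 0, and in endothelial cells the Resf1 mean is 99.3 CPM in Control against 51.4 CPM in AKI-CKD.

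For AKI-CKD + EGT against AKI-CKD, the log2 difference of Rlf ran from 0.20 to 1.11 over the 8 types tested, with a median of 0.52. In edgeR it passed the adjusted threshold in 0 of 8 types, with 5 at an unadjusted p under 0.05. DESeq2 called it in 1, the proximal tubule. The difference of Resf1 ran from 0.073 to 1.16 over 12 types, with a median of 0.46, or 0.69 without AKI-CKD + EGT mouse 3, and passed in 0 of 12 in edgeR (3 at an unadjusted p under 0.05) and 0 in DESeq2. Against Control, the Resf1 difference of AKI-CKD + EGT mice ran from -1.16 to -0.19, with a median of -0.79, and that of Rlf from -0.47 to 0.24, with a median of -0.16. Without AKI-CKD + EGT mouse 3 these medians were -0.61 and -0.29, and edgeR again called neither gene in any type. In edgeR, Resf1 passed in 0 of 12 types (8 at an unadjusted p under 0.05) and Rlf in 0 of 8 (1 at an unadjusted p under 0.05), and DESeq2 called neither. Over the 12 types together, edgeR called 0.472% of the genes tested for AKI-CKD + EGT against AKI-CKD and 0.0039% against Control, and DESeq2 0.804% and 0.0799%. At an unadjusted p under 0.05, edgeR held 11.6% and 5.22% of the genes tested. As the types share the mice and proximal tubule RNA, they are not separate measurements of the groups.

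Levels were also compared between cell types, within each mouse and as counted. This comparison is not free of the choice of the genes, since the AKI-CKD and Control proximal tubule counts that carry the choice are part of it. The mean Rlf level over the 9 mice was highest in principal cells (26.5 ± 5.81 CPM), the proximal tubule (25.1 ± 7.96 CPM) and the distal convoluted tubule (24.8 ± 5.56 CPM). It was lowest in connecting tubule cells (13.2 ± 4.80 CPM) and cycling cells (10.5 ± 5.20 CPM, SD, n = 9 each), the latter from 37 UMIs in all. The mean Resf1 level was highest in T cells (66.8 ± 31.3 CPM), principal cells (65.7 ± 19.7 CPM) and endothelial cells (61.8 ± 26.3 CPM) and lowest in intercalated cells (33.4 ± 16.2 CPM). These means pool the 3 groups. In Control mice alone, the proximal tubule mean was above that of principal cells, at 33.1 against 28.3 CPM for Rlf. For Resf1 it was 86.5 against 82.0 CPM. No neighbours in the order of Rlf differed by more than the SD of their difference within mice. In the order of Resf1, the step from endothelial cells down to the proximal tubule alone did, at 0.38 ± 0.34 on the log2 scale over the 9 mice. That step was 0.14 ± 0.31 in Control and 0.70 ± 0.047 in AKI-CKD mice, by whose low counts the genes were chosen.

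By exact two-sided sign-flip permutation over the 9 mice, Rlf was lower than in the proximal tubule in 5 of 11 types after adjustment over 22 tests. In connecting tubule, intercalated cells and macrophages it was lower in 9 of 9 mice, with log2(CPM + 1) differences of 0.89, 0.81 and 0.73 and an adjusted exact p of 0.0286 each. Of 8813 genes, 24.3%, 17.3% and 18.7% were likewise lower in all mice in these 3 types. In the loop of Henle (0.25 ± 0.20) and in cycling cells (1.42 ± 1.33), Rlf was lower in 8 of 9 mice, with an adjusted exact p of 0.0368 each, and 22.6% and 16.5% of genes were lower in at least 8 mice. The value in cycling cells rested on 37 Rlf UMIs over the 9 mice, with 0 in AKI-CKD mouse 1. There Rlf had not passed the filter on low counts. Resf1 was lower in 2 of 11 types, connecting tubule (0.49 ± 0.41, adjusted exact p = 0.0368) and intercalated cells (0.54 ± 0.43, adjusted exact p = 0.0368), each in 8 of 9 mice, where 35% and 24.1% of genes were lower in at least 8 mice. For Resf1, the proximal tubule changed place against some types between groups, in the counts that chose the gene. The Resf1 mean in Control mice was 86.5 CPM in the proximal tubule, 82.0 CPM in principal cells and 67.3 CPM in the distal convoluted tubule. The Control difference from principal cells was 0.067 ± 0.19 in log2(CPM + 1), with the proximal tubule higher in 2 of 3 mice. In AKI-CKD mice the proximal tubule was the lowest of these 3 types, at 23.7 CPM against 53.9 and 33.1 CPM, in 3 of 3 mice. The means of B, cycling and stromal cells and macrophages also went from below to above it. Those of T and endothelial cells were above it in both groups, and those of loop of Henle, connecting tubule and intercalated cells below it in both. For Rlf, too, the proximal tubule was above principal cells in 2 of 3 Control mice and in 0 of 3 AKI-CKD mice. Whether these differences between types differ by group was not tested. The counts of types depended on which mice were used, and fewer mice also raise the smallest p the exact test can give. For Rlf the count was 5 without AKI-CKD mouse 3, 3 without AKI-CKD mouse 1 and 0 without any 1 of the other 7 mice. For Resf1 it was 2 without AKI-CKD mouse 1 and 0 without any 1 of the other 8 mice. At a clustering resolution of 0.6 the counts were 1 for Rlf and 0 for Resf1.

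Genes whose mean levels ran most like those of Rlf over the 12 types, among 8813 genes with a mean of at least 10 CPM, were Malat1 (Pearson r = 0.94), Atxn1 (0.94), Thoc2l (0.91), Ccnl2 (0.91) and Smyd3 (0.91). Those most like Resf1 were Srsf11 (0.95), Nsd3 (0.89), N4bp2l2 (0.88), Gm44686 (0.88) and Papola (0.86). Between Rlf and Resf1 themselves r was 0.62, which ranked 410th for Rlf and 483rd for Resf1. The 12 points come from the same 9 libraries and share proximal tubule RNA, so these values are descriptions only.

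Genes of H3K9 methylation were read beside Rlf and Resf1. The list held 17 genes of the HUSH complex, the H3K9 methyltransferases and their partners, and all 17 were tested. In AKI-CKD against Control, edgeR called 0 of the 17 (1 at an unadjusted p under 0.05) and DESeq2 0, with 9 values below 0 and a median log2 difference of 0.00, as over all genes. edgeR called 0.0199% of all genes there and DESeq2 0.695%, and 8.02% had an unadjusted p under 0.05 in edgeR. The lowest value was that of Setdb1, the methyltransferase that works with Resf1, at -0.29 (SE 0.13, adjusted p = 0.617 in edgeR), from 12.01 CPM in Control to 9.83 CPM in AKI-CKD as means. Next were Tasor2 (-0.26), the paralog of Tasor, and Tasor itself (-0.24), a subunit of HUSH. At the other end were Suv39h2 (0.30), a methyltransferase of constitutive heterochromatin, Trim28 (0.13), the corepressor that brings Setdb1 to retroelements, and Ehmt2 (0.07), which adds mono- and dimethyl marks. With EGT, against AKI-CKD mice, edgeR and DESeq2 each called 0 of the 17, with 0 at an unadjusted p under 0.05 in edgeR, which 12.7% of all genes had, and a median of -0.05. Against Control, AKI-CKD + EGT mice had values below 0 for 13 of the 17, with a median of -0.13 against 0.00 over all genes, and again 0 were called by edgeR or DESeq2 and 0 had an unadjusted p under 0.05 in edgeR.

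Screens for modifiers of transgene silencing, as the one that gave Rlf, also led to genes such as Smchd1 and Dnmt1. Of 11 such genes listed, 3 are on the list above. edgeR and DESeq2 each called 0 of the 11 in AKI-CKD against Control, and the median log2 difference was -0.11. At an unadjusted p under 0.05 in edgeR there were 2 of the 11, against 8.02% of all genes. Smchd1, which keeps the inactive X chromosome silent, had the lowest value at -0.38 (SE 0.11, adjusted p = 0.505 in edgeR), and its means were 15.6 CPM in Control, 11.99 CPM in AKI-CKD and 14.9 CPM in AKI-CKD + EGT. Its value for AKI-CKD + EGT against AKI-CKD was 0.31 (adjusted p = 0.340 in edgeR). In that comparison edgeR and DESeq2 called 0 of the 11, with a median of -0.003. There, 1 had an unadjusted p under 0.05 in edgeR, against 12.7% of all genes. Against Control, AKI-CKD + EGT mice had values below 0 for 8 of the 11, with a median of -0.14 and 0 called by edgeR or DESeq2. Of the 11, 1 had an unadjusted p under 0.05 in edgeR, against 7.94% of all genes. In AKI-CKD against Control, Hdac1, a histone deacetylase, was at -0.17, and Dnmt3b, a de novo DNA methyltransferase, at 0.33 from levels under 1 CPM.

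Of 11 genes that write, read or remove DNA methylation, edgeR and DESeq2 called 0 in each comparison, with a median of -0.03 in AKI-CKD against Control. In edgeR, 0 had an unadjusted p under 0.05 in that comparison, 1 in AKI-CKD + EGT against AKI-CKD and 0 against Control. Of all genes, 8.02%, 12.7% and 7.94% did, in the same order. Values ran from -0.23 for Dnmt3a, a de novo DNA methyltransferase, and Tet3, which oxidizes methylated cytosine, to 0.37 for Hells, a chromatin remodeler. With EGT, against AKI-CKD mice, Tet3 had the highest value at 0.42 (adjusted p = 0.318 in edgeR). Germline genes are often kept silent by DNA methylation in body tissues. Of 10 such genes, 4 passed the filter and edgeR and DESeq2 called 0 in each comparison. In edgeR, 1 of the 4 had an unadjusted p under 0.05 in AKI-CKD against Control, 2 in AKI-CKD + EGT against AKI-CKD and 1 against Control, where 8.02%, 12.7% and 7.94% of all genes did. The medians of the 4 were -0.28, -0.34 and -0.53 in the same order, with 3, 2 and 4 values below 0. Ddx4, a helicase of germ cells, was at -1.42 (SE 0.59) in AKI-CKD against Control from 158 UMIs in all, and Hormad1, a protein of the meiotic chromosome axis, at 0.95 (SE 0.56) from 87 UMIs. Dazl, which binds RNA in germ cells, was counted with 14 UMIs over the 9 mice. Transcripts of retroelements were not analysed here.

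**Figure D5:**
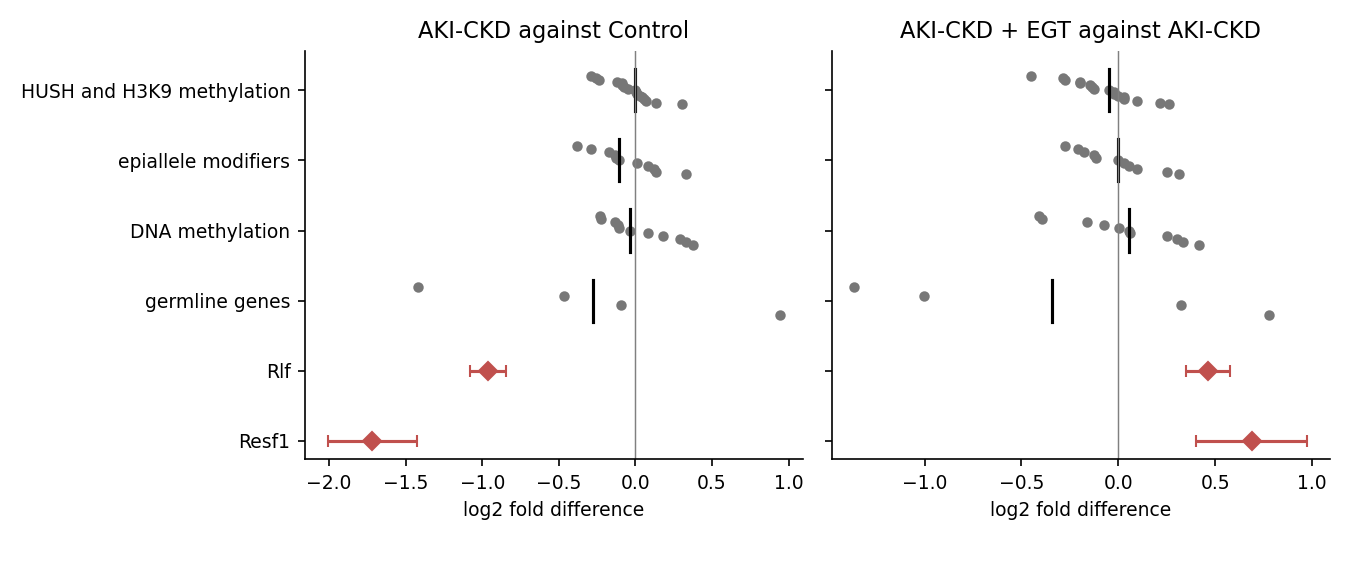
Log2 fold differences (horizontal axis) of the tested genes of 4 lists, 1 grey point a gene with a black line at the median, beside Rlf and Resf1 with their SE (red). In AKI-CKD against Control, the left panel, Rlf is at -0.96 and Resf1 at -1.72, and the 3 lists of chromatin genes lie between -0.38 and 0.37.

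The genes next to Resf1 on the chromosome in the RefSeq order were also read. Etfbkmt, a methyltransferase of a mitochondrial protein, stood at 17.4 ± 1.95 CPM in Control, 11.6 ± 2.34 CPM in AKI-CKD and 12.9 ± 2.24 CPM in AKI-CKD + EGT (SD, n = 3 each). Its log2 difference between AKI-CKD and Control was -0.59 (SE 0.18, adjusted p = 0.505 in edgeR). Amn1 was at -0.24 (SE 0.13, adjusted p = 0.637 in edgeR) in the same comparison. Of the 3 genes on each side of Rlf, Tmco2 was counted with 13 UMIs and Gm12888 with 1 over the 9 mice, and neither was tested. The other neighbours had no row in the matrices used here.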

How the data were processed

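Single cells of 9 mouse kidneys were measured by droplet-based RNA sequencing with poly(dT) capture (DNBelab C4). The authors deposited raw UMI counts per gene and barcode, made with PISA 1.0 per the file headers. The submitters' processing notes name GRCm39, and aligner and annotation are not given in the sources used here. Groups and replicate numbers came from the labels. Nothing says that mice were handled as separate batches, and p-values measure the spread between mice.

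Rlf and Resf1, the gene lists and the cell type markers were chosen with earlier results of these data known. Cells with under 1000 UMIs, under 500 genes or over 15% mitochondrial UMIs were left out. From 2000 variable genes, without Rlf, Resf1, the listed, mitochondrial and ribosomal protein genes and Malat1, 30 components were made and freed of library differences by the Harmony method, written anew in numpy 2.4.6, then clustered by Leiden (leidenalg 0.10.2, 20 neighbours, resolution 1.1). Of 32 clusters of at least 50 cells, 24 were named, each with at least 3 markers at least 2-fold above the clusters of other types. Clusters without correction had been planned. Correction, the comparison with other types and leaving a haemoglobin-led and a neutrophil-like cluster unnamed were chosen after seeing the data. Of 63006 unnamed cells, 40686 lay in 4 clusters whose best match was the proximal tubule with under 3 such markers. Another 15343 lay in 1 cluster scored closest to injured tubule, with 1 such marker and 0 injured tubule markers among its 10 leading genes. Those leading genes held Spp2, Apob and the proximal tubule marker Gatm, which also led a named proximal tubule cluster at a resolution of 0.6. Its cells may therefore include proximal tubule cells. Names are rebuilt and may differ from the study's. Podocytes (628 cells, at least 14 per mouse) were not used. Scrublet called 0 or 1 cells per library, so it had not worked as a doublet filter, and the 6% of cells with the highest scores were left out as an alternative.

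Counts were summed per mouse over all cells and per type, and tested with edgeR 4.0.16 (TMM, quasi-likelihood, all 9 mice in R 4.3.3), with adjusted p-values (Benjamini-Hochberg) over all genes tested and a threshold of 0.05. DESeq2 1.42.0 was an alternative. The tests were checked on simulated data. Types were compared by exact sign-flip permutation of log2(CPM + 1), whose smallest p is 0.00391. The named genes are Rlf, Resf1, Malat1, up to 3 highest and 3 lowest per list, 3 neighbours on each side and the 5 genes most like each. Transcript lengths were GENCODE M21, and promoters and neighbours RefSeq GRCm38.p6, used for names and sequence only.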

Additional observations from a re-analysis of the deposited data

How the results depend on the processing

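The cisplatin comparison below is AKI-CKD against Control, the EGT comparison is AKI-CKD + EGT against AKI-CKD, and the third is AKI-CKD + EGT against Control. In the sums of all cells, no alternative changed the direction of Rlf or Resf1 in any comparison. The cisplatin comparison chose the genes, so no calls are compared there. In the other comparisons the calls of Rlf and Resf1 were the same in 78 of 80 alternative values. DESeq2 alone passed the threshold for Rlf, at 0.47 (adjusted p = 0.0330) in the EGT comparison and -0.51 (adjusted p = 0.0192) in the third. Genes called in these comparisons numbered 4, 1 and 1 in edgeR, 140, 243 and 109 in DESeq2, 29, 5 and 17 with no filter, and 0 in each with a replicate block. With only the 6 mice compared they numbered 0, 0 and 1. With each mouse left out, they ran from 0 to 11, 0 to 1 and 0 to 3. Without scaling beyond total UMIs, the median of all genes moved by 0.23 in the EGT comparison and 0.17 in the third. Same-numbered mice had correlations of -0.49 to 0.45 of their deviations from the group means, and mice of different numbers -0.48 to 0.47. No pairing by number was seen, but so few mice per group cannot exclude it. With the replicate block, Rlf and Resf1 stood at -0.96 and -1.74 in the cisplatin comparison, 0.46 and 0.64 in the EGT comparison and -0.50 and -1.10 in the third, and no call of either gene changed in the last 2 comparisons.

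Cell types depended more on the processing. Types lower in Rlf than the proximal tubule numbered 5, but 1 at a resolution of 0.6 and 1 without correction for the library, where a resolution of 0.6 gave 1 type higher. With each mouse left out they numbered 0 to 5. For Resf1 they numbered 2, but 0 at a resolution of 0.6 and without correction, 1 without the highest Scrublet scores, and 0 to 2 with each mouse left out. Types higher in Resf1 numbered 0, but 2 at a resolution of 0.6, 3 with a total without mitochondrial, ribosomal protein and Malat1 UMIs, 1 without the highest Scrublet scores and 1 without correction. With a proximal tubule share taken out, an alternative added after seeing the data, types beside the proximal tubule with every AKI-CKD mouse below every Control mouse numbered 0 for Rlf (5 as counted) and 1 for Resf1 (11 as counted). As counted, but without the highest Scrublet scores, the number for Rlf was 3. These causes were not tested.

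Values near 0 changed sign. At a resolution of 0.6, Resf1 in the EGT comparison was -0.088 in connecting tubule and -0.037 in cycling cells, and its proximal tubule level minus that of macrophages was -0.24. That last difference was -0.072 with the reduced total. Without correction, Resf1 in connecting tubule was -0.046 in the EGT comparison and -0.078 for the proximal tubule minus connecting tubule, and Rlf was 0.043 in the loop of Henle in the third comparison and 0.050 in principal cells in the cisplatin comparison. In DESeq2, Rlf in macrophages was -0.014 in the third comparison.

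Leaving out each mouse, Resf1 ranged from -0.47 to 0.30 in cycling and -0.13 to 0.44 in principal cells in the EGT comparison. In the third it ranged from -0.27 to 0.14 in B cells (8 mice, since Resf1 failed the filter on low counts without AKI-CKD + EGT mouse 2) and -0.38 to 0.27 in stromal cells. Rlf ranged from -0.12 to 0.39 in endothelial cells in the EGT comparison and from -0.34 to 0.080 in principal cells in the cisplatin comparison. In the third it ranged from -0.37 to 0.10 in connecting tubule, -0.14 to 0.49 in intercalated cells, -0.16 to 0.16 in macrophages and -0.16 to 0.35 in principal cells. The proximal tubule minus the distal convoluted tubule ranged from -0.071 to 0.036 for Rlf and -0.11 to 0.079 for Resf1, and for Resf1 minus macrophages from -0.059 to 0.14 and minus stromal cells from -0.17 to 0.058.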
